A study of Mus musculus with 6 samples.

Results

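The 49 mature miRNA names described here come from the Dlk1-Dio3 imprinted locus and were chosen by name, as miRNAs of that locus. No measured value sets which names are members, although the locus was picked with earlier results of these data known. Of these 49 names, 21 were in the deposited table, which lists 1065 miRNA names. The cells were C2C12, mouse myoblasts kept as a line, which divide in rich medium and fuse into muscle fibres in poor medium. Only 3 of the 49, mmu-miR-127-3p, mmu-miR-370-3p and mmu-miR-409-3p (mmu, for mouse, is left out of names from here on), reached 1 RPM in at least 3 of the 6 libraries, where RPM scales the reads of each name to a library of 1000000 miRNA reads. None of the 49 averaged 10 RPM. The listed members together gave 7.43 to 8.70 RPM in TGF-beta libraries and 9.06 to 11.1 RPM in control libraries.

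The Dlk1-Dio3 locus is a stretch of mouse chromosome 12 in which the copy inherited from the father makes the protein-coding genes Dlk1, Rtl1 and Dio3, and the copy inherited from the mother makes the long noncoding RNAs Meg3, Rian and Mirg. The miRNA hairpins of the locus lie along the maternal noncoding transcripts, and a set of them lies antisense to Rtl1. These miRNAs are known to be abundant in the embryo, the placenta and the brain, and in mouse skeletal muscle they have been tied to muscle stem cells and to regeneration.

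The groups were 3 libraries of C2C12 cells given TGF-beta, a cytokine that holds back muscle differentiation and drives fibrosis, and 3 libraries of control C2C12 cells. The TGF-beta dose, time and isoform are not given in the labels, and no strain, genotype or age is given beyond the name of the line. All libraries come from a single cell line, and the labels do not say that they came from separate cultures, and the p-values below therefore speak only of the spread from library to library, part of which may be technical. Its stated interest is the part myoblasts play in fibrosis of skeletal muscle.

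The libraries held 9015669 to 9450936 miRNA reads in TGF-beta cells and 9273231 to 9813063 in control cells. A single read was worth 0.106 to 0.111 RPM in TGF-beta libraries and 0.102 to 0.108 RPM in control libraries. Where a library shows 0, up to 3 reads remain possible, which is 0.317 to 0.333 RPM in TGF-beta libraries and 0.306 to 0.324 RPM in control libraries, and this limit covers counting error only. The cell line label was set beside muscle miRNAs, whose 6 listed names summed to 101376 to 102575 RPM in TGF-beta libraries and 134850 to 154477 RPM in control libraries, and 3 of the 6 (miR-206-3p, miR-486a-5p and miR-1a-3p) were called lower in the fit described below. The labels' extraction text speaks of retinas, a neural tissue, so 10 retinal and neural miRNAs were looked up as well. They summed to 6899 to 9220 RPM in TGF-beta libraries and 8274 to 9340 RPM in control libraries, and 0 of the 6 tested ones were called. The largest part came from miR-182-5p, at 3778 ± 807 RPM in TGF-beta and 3974 ± 391 RPM in control libraries (SD, n = 3 each). Next came miR-183-5p, averaging 2544 RPM in TGF-beta and 2770 RPM in control libraries, and miR-9-5p, at 1215 and 1408 RPM. In the same order, miR-128-3p averaged 455 and 521 RPM, miR-129-5p 108 and 116 RPM, and miR-96-5p 75.5 and 80.6 RPM. Low levels, under 0.5 RPM on average in both groups, were those of miR-211-5p and miR-219a-5p. The neuronal miR-124-3p was not listed. The retinal pigment epithelium miRNA miR-204-5p had no read in any TGF-beta library and averaged 0.350 ± 0.117 RPM in control libraries (SD, n = 3). What part other cells have in the reads of the locus was not tested.

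The mature sequences below are those of the members the results turn on, from RefSeq with GRCm38.p6 positions and written 5′ to 3′, with the seed (bases 2 to 8, which pair with targets) in capitals. RefSeq held 46 of the 49 mature sequences and the hairpins of all 49. The first group holds the 3 members that reached the tested level, and the second holds 4 members studied in muscle or brain that were not in the table.
miR-127-3p: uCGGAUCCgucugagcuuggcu
miR-370-3p: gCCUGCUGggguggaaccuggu
miR-409-3p: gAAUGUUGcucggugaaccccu
miR-431-5p: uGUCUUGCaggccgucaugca
miR-434-3p: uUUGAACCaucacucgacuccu
miR-376a-3p: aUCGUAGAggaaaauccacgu
miR-376b-3p: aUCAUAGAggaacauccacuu
The seeds printed above all differ, and the 46 members with a sequence carried 46 different seeds. The hairpins of the members lie on the plus strand over 184 kb.

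miR-127-3p lies at chr12:109592888-109592909 on the plus strand, in a hairpin antisense to an exon of Rtl1 in the GENCODE M21 annotation of GRCm38. In mouse it is known to direct the cleavage of Rtl1 mRNA, with which it is fully complementary. It was the most abundant member, although 308 of the 1065 names (28.9%) had a higher mean. In replicates 1, 2 and 3 it had 2.68, 3.28 and 3.88 RPM (25, 31 and 35 reads) in TGF-beta libraries and 4.08, 3.99 and 4.59 RPM (40, 37 and 43 reads) in control libraries. All 3 TGF-beta values lay below all 3 control values, but the nearest of them were 35 reads in TGF-beta replicate 3 and 37 reads in control replicate 2. The exact 95% binomial interval of a single library ran from 2.70 to 5.40 RPM in TGF-beta replicate 3, the highest of its group, and from 2.81 to 5.50 RPM in control replicate 2, the lowest of its group, and so these intervals overlapped.

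miR-370-3p lies at chr12:109618305-109618326 on the plus strand, in an intron of the noncoding RNA Rian, and has been studied in lipid metabolism of the liver. It had 2.04, 1.59 and 1.22 RPM (19, 15 and 11 reads) in TGF-beta libraries and 2.34, 1.73 and 2.56 RPM (23, 16 and 24 reads) in control libraries. The groups overlapped, since TGF-beta replicate 1 lay above control replicate 2. Its other arm, miR-370-5p, had 1 read in all 6 libraries, in control replicate 3.

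miR-409-3p lies at chr12:109743204-109743225 on the plus strand, in an intron of the noncoding RNA Mirg near the far end of the large hairpin array. It had 1.72, 1.06 and 0.333 RPM (16, 10 and 3 reads) in TGF-beta libraries and 1.32, 1.40 and 1.28 RPM (13, 13 and 12 reads) in control libraries. The control libraries were close together, while the TGF-beta libraries lay on both sides of them. The other arm, miR-409-5p, had 0, 5 and 6 reads in TGF-beta libraries and 2, 0 and 3 reads in control libraries. The arms of the hairpin together gave 16, 15 and 9 reads in TGF-beta libraries and 15, 13 and 15 reads in control libraries, so that only TGF-beta replicate 3 stood below the others.

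**Figure D1:**
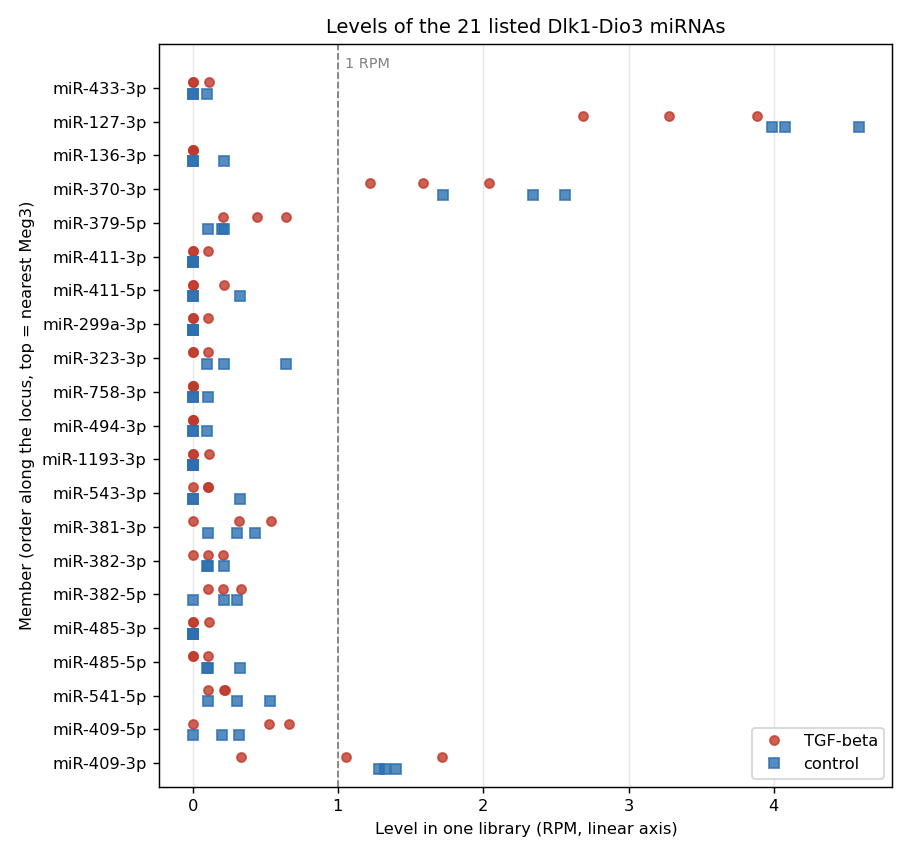
Level in each library, in RPM on a linear axis, of the 21 listed members, ordered along the locus from the Meg3 end at the top, with TGF-beta libraries as circles and control libraries as squares. Only miR-127-3p, miR-370-3p and miR-409-3p passed 1 RPM (dashed line) in any library, and the other 18 members stayed at or below 0.666 RPM.

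The spread of these 3 members between libraries of a group was set against counting error. The Pearson chi-square of the reads against depth within groups, per degree of freedom, was 0.617 for miR-127-3p, 0.873 for miR-370-3p and 2.12 for miR-409-3p, where 1 is the value of counting error alone. For the first pair of members the value was below 1, so no spread beyond counting error was seen. With 3 libraries in each group the value is imprecise. It cannot settle whether the spread of any of the 3 members exceeded counting error.

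The other 18 listed members were near the floor of the assay. Their means over the 6 libraries ran from 0.0170 to 0.304 RPM, and none had more than 6 reads in a library. Over all 21 listed members and 6 libraries there were 126 values, of which 55 were 0, 46 were 1 to 3 reads and 25 were above 3 reads. Values of 0 made up 43.7% of the members' values, against 26.9% of the values of all names in the table. Each library held reads of 10 to 13 members in TGF-beta cells and of 11 to 13 in control cells.

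Members with reads in all 6 libraries were 5, namely the 3 above with miR-379-5p and miR-541-5p, and only miR-127-3p and miR-370-3p had more than 3 reads in every library. At the other end, 6 members had a single read among all 56240182 reads of the study, namely miR-299a-3p, miR-411-3p, miR-485-3p, miR-494-3p, miR-758-3p and miR-1193-3p. Such single reads were common in the table, where 108 of 1065 names had 1 read. Of the 21 members, 14 were seen in both groups, 4 in TGF-beta libraries only and 3 in control libraries only. A member seen in a single group had at most 2 reads, so none of these can be called particular to a group at this depth.

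**Figure D2:**
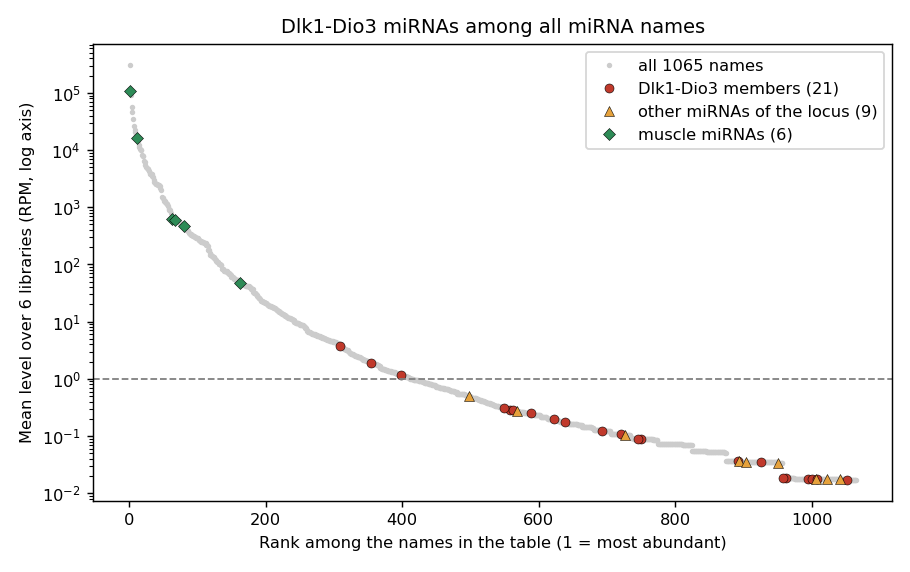
Mean level over the 6 libraries (RPM, log axis) of all 1065 names against their rank, with the 21 listed members of the locus as circles, 9 other miRNAs of the locus as triangles and 6 muscle miRNAs as diamonds. The 3 most abundant members rank 309, 355 and 398, just above the 1 RPM line, while the muscle miRNAs lie far to the upper left.

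Along the locus, reads of members were found in hairpins of each large transcript unit except Meg3, which held only 1 member. Antisense to Rtl1, 3 of 8 members were listed, with 92 reads in TGF-beta libraries and 123 in control libraries, nearly all of them from miR-127-3p. miR-433-3p had 1 read in each group. miR-431-5p, which promotes mouse satellite cell differentiation by acting on Pax7, and both arms of miR-434 were not in the table. Upstream of Rtl1, none of the 3 members from the miR-337 and miR-540 hairpins was listed, and neither was miR-770-3p, whose hairpin overlaps a Meg3 exon.

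miR-136-3p had 2 reads in control replicate 2 and none elsewhere. Its sequence overlaps, by 19 bases on the opposite strand, that of miR-3071-5p, which showed the same reads in every library. In all, 4 names in the table showed just these reads. Whether counting used the strand is not stated, and without strand the reads of this pair cannot be told apart. Near-equal means were also seen for miR-24-3p and the opposite-strand miR-3074-5p. These were 7350 and 7345 RPM in TGF-beta and 8528 and 8522 RPM in control libraries. Whether the 2 reads of miR-136-3p were counted under both names was not tested.

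The largest number of members lies in the hairpin array that runs from miR-379 to miR-410, whose loss in mice is known to impair the newborn's energy supply from the liver. Between Rian and the annotated start of Mirg, 10 of 19 members were listed, with 28 reads in TGF-beta libraries and 30 in control libraries. miR-379-5p, from the first hairpin of the array, led them with 6, 2 and 4 reads in TGF-beta libraries and 2, 1 and 2 reads in control libraries, and these groups met at 2 reads. miR-381-3p had 5, 3 and 0 reads in TGF-beta libraries and 3, 1 and 4 reads in control libraries, with full overlap. miR-323-3p had 0, 1 and 0 reads in TGF-beta libraries and 1, 2 and 6 reads in control libraries, and 1 library of each group had the same single read. The miR-376 members and miR-495-3p were not in the table.

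Within Mirg, 7 of 17 members were listed, with 56 reads in TGF-beta libraries and 66 in control libraries. Apart from the arms of miR-409, miR-541-5p had 2, 1 and 2 reads in TGF-beta libraries and 3, 1 and 5 reads in control libraries. miR-382-5p had 1, 2 and 3 reads in TGF-beta libraries and 3, 0 and 2 reads in control libraries. These values overlapped between groups. The hairpins of miR-154, miR-369, miR-410 and miR-412 had no listed member.

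**Figure D3:**
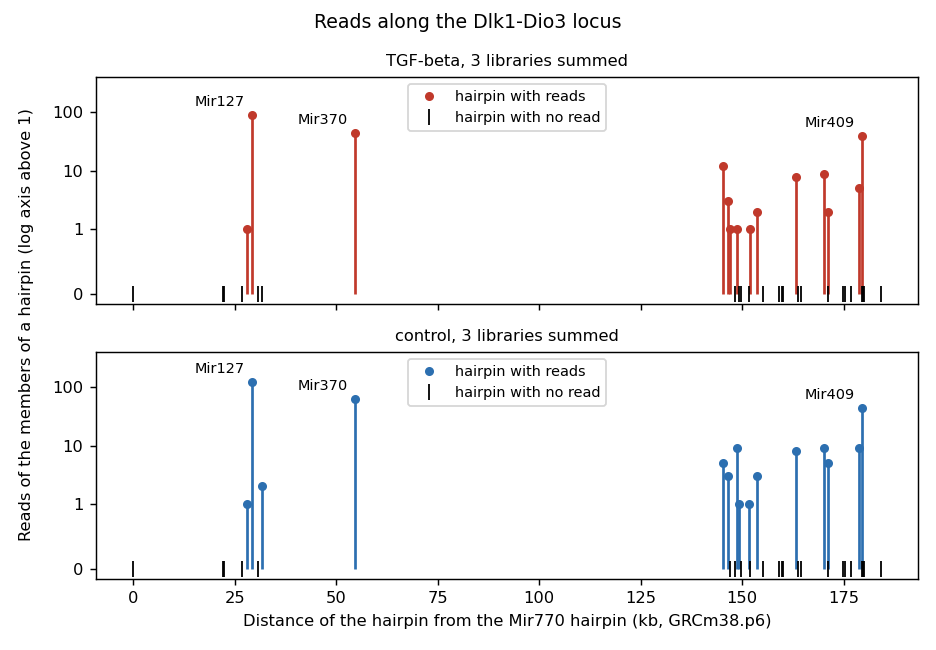
Reads of the members of each hairpin, summed over the 3 TGF-beta libraries (upper panel) and the 3 control libraries (lower panel), against the distance of the hairpin from the Mir770 hairpin in kb (y axis linear below 1 and logarithmic above). The hairpins of miR-127, miR-370 and miR-409 stand above all others in both groups. Hairpins with no read of a member (black ticks) lie between those with reads. Arms outside the list are not drawn, such as miR-377-5p (1 read, in TGF-beta) and miR-329-5p (2 reads, in control).

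Arms of the same hairpin differed in reads, in most cases by small counts, and these differences were not tested. Both arms were in the table for 6 hairpins of the locus. miR-370 gave 108 reads of the 3p arm and 1 of the 5p arm over the 6 libraries, and miR-409 gave 67 and 16. The 5p arm was the larger in miR-379, with 17 reads against 2, in miR-485, with 6 against 1, and in miR-411, with 5 against 1. In miR-382 the arms were closest, with 11 reads of the 5p and 7 of the 3p arm. The reads of miR-382, miR-485 and miR-411 were too few to tell unequal from equal arms.

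The 28 members not in the table were miR-770-3p from Meg3, both arms of miR-337 and miR-540-3p upstream of Rtl1, and miR-127-5p, miR-136-5p, miR-431-5p and both arms of miR-434 antisense to Rtl1. From the array before Mirg they were miR-299a-5p, miR-380-3p, miR-329-3p, miR-495-3p, miR-376a-3p, miR-376b-3p, miR-376c-3p, miR-487b-3p and miR-539-5p. From Mirg they were miR-668-3p, miR-496a-3p, miR-377-3p, miR-412-5p, miR-410-3p, miR-3072-3p and both arms of miR-154 and miR-369. Of the 28, 5 had the other arm of their hairpin in the table. Every name in the table had at least 1 read in some library, and the values of each library summed to 1000000, so names outside the table gave no reads to the totals the authors scaled to. Whether the miRNA annotation used for counting held each of the 28 names is not known. The median GC content of the mature sequences was 47.6% for listed and 44.2% for unlisted members, with wide ranges of 36.4% to 68.2% and 23.8% to 72.7%.

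Some seeds of unlisted members were carried by other miRNAs of the cells, from outside the locus. miR-329-3p, not in the table, shares its seed with miR-362-3p of the X chromosome, and miR-410-3p shares its seed with miR-344d-3p of chromosome 7. The sequences are shown because the seeds match while the rest of each sequence differs.
miR-329-3p: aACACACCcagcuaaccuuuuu
miR-362-3p: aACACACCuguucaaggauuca
miR-410-3p: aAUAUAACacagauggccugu
miR-344d-3p: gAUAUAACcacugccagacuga
miR-362-3p had 172, 136 and 76.5 RPM in TGF-beta libraries and 164, 155 and 182 RPM in control libraries, with overlap between the groups. The log2 difference was −0.45 with an SE of 0.21 and an adjusted p of 0.296 from limma, and 2 of 3 TGF-beta libraries lay below every control library. miR-344d-3p had 4.30, 4.97 and 3.99 RPM in TGF-beta libraries and 3.46, 3.67 and 3.73 RPM in control libraries, a log2 difference of 0.23 with an SE of 0.20 and an adjusted p of 0.656 from limma. All 3 TGF-beta values of miR-344d-3p lay above all 3 control values, by a small margin.

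Whether the members differed between TGF-beta and control cells was read from a fit over the 418 names that reached 1 RPM in 3 libraries or more, made with limma on log2(RPM + 1) with Benjamini-Hochberg adjustment over all 418 and a threshold of 0.05. This threshold called 7.89% of all names, and 3.83% were called lower with TGF-beta. Some called names had nearly equal means in each group, so these shares do not count separate calls only. For instance, miR-1a-3p and miR-1b-5p had 14164 and 14138 RPM in TGF-beta and 19024 and 18995 RPM in control libraries. Of the 3 members that entered the fit, 0 were called, and 0 had an unadjusted p under 0.05 with limma, edgeR, DESeq2 or limma-voom, while 15.3% of all 418 names had one with limma.

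The log2 fold change of miR-127-3p was −0.29 (SE 0.20, 95% interval −0.72 to 0.14, limma adjusted p = 0.558), from means of 3.28 ± 0.60 RPM in TGF-beta and 4.22 ± 0.32 RPM in control libraries (SD, n = 3 each). Its groups did not overlap, as was the case for 21.3% of the 418 names, in either direction. That of miR-370-3p was −0.30 (SE 0.24, 95% interval −0.81 to 0.21, limma adjusted p = 0.637), from means of 1.62 ± 0.41 RPM in TGF-beta and 2.21 ± 0.43 RPM in control libraries (SD, n = 3 each). That of miR-409-3p was −0.26 (SE 0.29, 95% interval −0.86 to 0.35, limma adjusted p = 0.718). Leaving out TGF-beta replicate 3, the library with 3 reads, gave 0.019 (adjusted p = 0.973 with limma). Folds on this scale understate the change of names near 1 RPM.

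All 3 values were negative, as were 59.6% of the 418 values, whose median was −0.05. The median of the 3 was −0.29. The most abundant miRNA of the cells, miR-21a-5p, rose with TGF-beta (log2 fold change 0.38, adjusted p = 0.00146 with limma) and took a larger share of the reads. Without its reads, and with the other names scaled anew, the median of all names moved to 0.11 and that of the 3 members to −0.21. The intervals above show that a moderate fall or no change of each member could not be told apart at this depth, and a p that misses the threshold does not show that a level was the same.

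**Figure D4:**
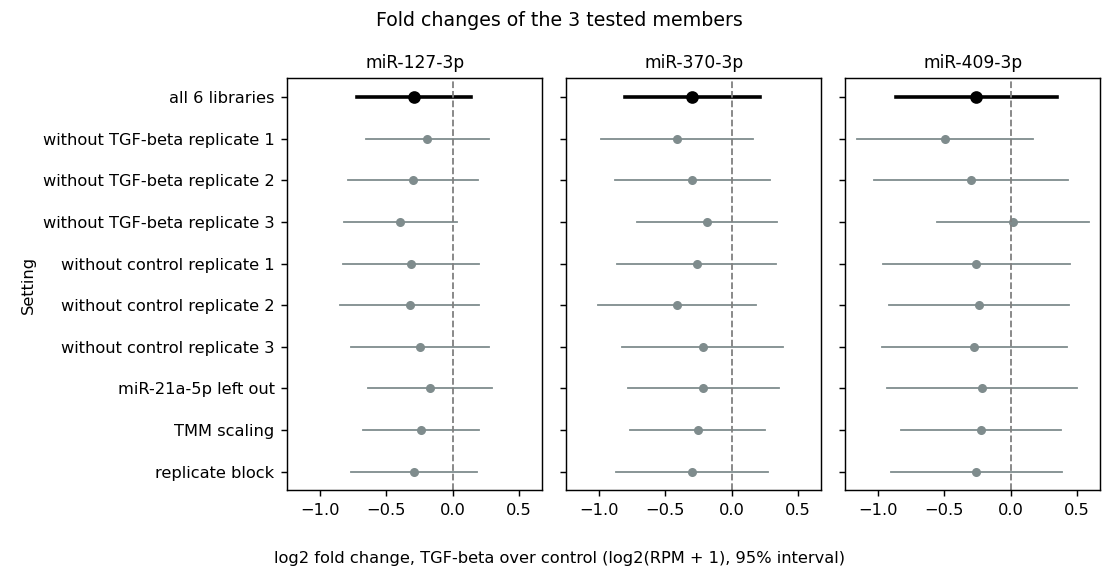
Log2 fold change of TGF-beta over control on the log2(RPM + 1) scale, with its 95% interval, for the 3 tested members, with all 6 libraries (black) and under 9 other settings (grey). Every interval shown spans 0, and only miR-409-3p changed sign, at 0.019 without TGF-beta replicate 3.

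Low members were reached by the count test of edgeR on the recovered reads of 643 names with at least 10 reads over the 6 libraries, which called 4.51% of names and gave an unadjusted p under 0.05 to 12.1%. Of 9 members in that test, 0 were called. miR-323-3p alone had an unadjusted p under 0.05, at 0.0473 (edgeR adjusted p = 0.405), from 1 read in TGF-beta and 9 reads in control libraries, of which 6 were in control replicate 3. miR-379-5p had 12 reads in TGF-beta and 5 in control libraries (edgeR adjusted p = 0.649), and miR-409-5p had 11 in TGF-beta and 5 in control libraries (edgeR adjusted p = 0.730). Neither passed. Of the 18 members outside the limma test, 9 had a higher and 9 a lower mean in TGF-beta libraries. The authors' deposited table gives unadjusted p-values, and among its 21 members the smallest was 0.0758, for miR-127-3p, while 7.51% of all its names were under 0.05.

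The summed level of the members was 8.70, 7.72 and 7.43 RPM (81, 73 and 67 reads) in TGF-beta libraries and 9.58, 9.06 and 11.1 RPM (94, 84 and 104 reads) in control libraries. The groups did not overlap, with means of 7.95 ± 0.66 RPM in TGF-beta and 9.91 ± 1.06 RPM in control libraries (SD, n = 3 each) and a difference of −0.32 in the mean log2 value. The groups overlapped with TMM scaling, with miR-21a-5p left out and with miR-127-3p left out of the sum, and the difference was −0.15 with miR-21a-5p left out. No test is given for this sum, since the locus was picked with earlier results known. The exact 95% intervals of single libraries overlapped, at 6.91 to 10.8 RPM in TGF-beta replicate 1 and 7.23 to 11.2 RPM in control replicate 2. In these bulk libraries fewer cells that make these miRNAs and less of them per cell cannot be told apart.

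**Figure D5:**
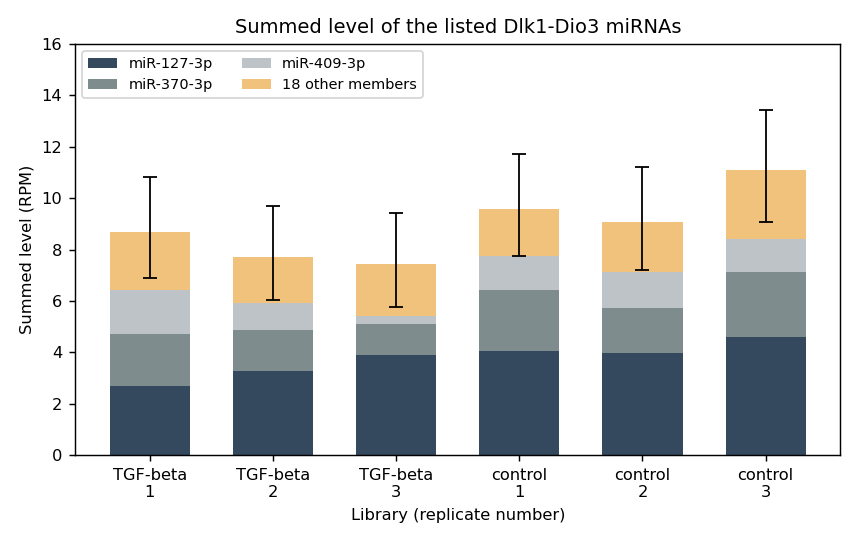
Summed level in RPM of the 21 listed members in each library, stacked by member, with TGF-beta libraries on the left, control libraries on the right and exact 95% binomial intervals of the sum. TGF-beta libraries reach 7.43 to 8.70 RPM and control libraries 9.06 to 11.1 RPM, and miR-127-3p is the largest part in every library.

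The same 3 members led the sum in both groups. miR-127-3p took 41.2% of the members' reads in TGF-beta libraries and 42.6% in control libraries. The share of miR-370-3p was 20.4% in TGF-beta and 22.3% in control libraries, and that of miR-409-3p was 13.1% in TGF-beta and 13.5% in control libraries. The 18 other members took 25.3% of 221 reads in TGF-beta libraries and 21.6% of 282 reads in control libraries. Set beside a muscle miRNA, miR-206-3p alone was about 10860 times the summed level of the members in TGF-beta libraries and 12803 times in control libraries.

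Other mature miRNAs of the locus, which the list of 49 leaves out, were lower still. Those in the table summed to 0.776 to 0.966 RPM in TGF-beta libraries and 1.02 to 1.28 RPM in control libraries. Of 66 such names, 9 were in the table, with 58 reads in all, and none reached the tested level. miR-493-5p was the highest, with 4, 8 and 2 reads in TGF-beta libraries and 3, 5 and 6 reads in control libraries. miR-134-5p, which limits the size of dendritic spines in rodent neurons, had 2, 0 and 5 reads in TGF-beta libraries and 3, 2 and 3 reads in control libraries. Both overlapped between groups, and neither was called by edgeR (adjusted p = 0.980 for each). With them, the locus had 30 names and 561 reads, or 8.21 to 9.66 RPM in TGF-beta and 10.2 to 12.4 RPM in control libraries.

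Some other imprinted miRNAs of the mouse gave more reads. The rodent cluster in the imprinted gene Sfmbt2 was taken by the family names miR-297, miR-466, miR-467 and miR-669, which cannot be told apart by locus where copies are near identical. It had 51 names in the table and summed to 215 to 273 RPM in TGF-beta libraries and 252 to 273 RPM in control libraries. Its most abundant names, miR-467a-5p and miR-467b-5p, had the same value in every library, 83.0 ± 11.4 RPM on average in TGF-beta and 86.6 ± 6.58 RPM in control libraries (SD, n = 3 each). With names of the same reads counted once, a choice made after seeing the data, the sum was 139 to 172 RPM in TGF-beta and 166 to 175 RPM in control libraries. Of these names 30 had reads in all 6 libraries, against 5 of the 21 Dlk1-Dio3 members and 564 of all 1065 names. Of its 19 tested names, 2 (miR-466a-3p and miR-466b-3p) were called lower and 0 higher, with a median log2 fold change of −0.23. Both called names had nearly the same value in each library, and they cannot be taken as separate calls. Of 10 names from other imprinted genes 9 were listed and 4 tested, summing to 140 to 171 RPM in TGF-beta libraries and 166 to 177 RPM in control libraries. Nearly all of that sum came from miR-298-5p and miR-296-3p, from the imprinted Gnas region. Without them, a choice also made after seeing the data, the other 7 summed to 3.99 to 6.24 RPM in TGF-beta and 7.44 to 11.6 RPM in control libraries. The 21 Dlk1-Dio3 members had 7.43 to 8.70 RPM in TGF-beta and 9.06 to 11.1 RPM in control libraries. In that group of 10 miR-335-3p, from an intron of the imprinted gene Mest, fell to 1.08 ± 0.35 RPM in TGF-beta libraries, against 3.67 ± 0.81 RPM in control libraries (SD, n = 3 each). The log2 difference was −1.16, with an SE of 0.24 and an adjusted p of 0.00384 from limma. Its control level was close to that of miR-127-3p, and so a change of this size was called at such a level, in a name picked because it was called. The other arm, miR-335-5p, did not reach the tested level and went the other way. It averaged 0.790 ± 0.367 RPM in TGF-beta and 0.561 ± 0.043 RPM in control libraries (SD, n = 3 each), with overlap between the groups. Whether these groups of names differ from the Dlk1-Dio3 members in their response was not tested.

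Markers of other cells differed in level between lists. The 4 blood miRNAs summed to 1.48 to 3.55 RPM in TGF-beta libraries and 1.17 to 2.16 RPM in control libraries, and the 5 epithelial miRNAs to 1.80 to 2.66 RPM in TGF-beta and 2.55 to 3.73 RPM in control libraries. The endothelial pair summed to 12.9 to 15.2 RPM in TGF-beta libraries and 12.8 to 25.02 RPM in control libraries, and liver miR-122-5p had 0.998 to 1.48 RPM in TGF-beta and 0.863 to 1.60 RPM in control libraries. None of the 9 miRNAs of mouse embryonic stem cells that were looked up, all 3p arms, was in the table. The other arms miR-292a-5p and miR-302a-5p were in it, averaging 0.249 and 0.0353 RPM over the 6 libraries. The summed level of the Dlk1-Dio3 members lay between that of the blood list and that of the endothelial pair in TGF-beta libraries and in control libraries. These sums run over 21 members, 4 blood names and 2 endothelial names, so they do not give the level of a single name. Over the 6 libraries the median name averaged 0.107 RPM among the members, 0.479 RPM in the blood list and 7.82 RPM in the endothelial pair.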

How the data were processed

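Small RNA reads of 6 C2C12 libraries, 3 TGF-beta and 3 control, were used as 1 table of values per miRNA name. The submitters' processing notes name the genome build mm9. How reads were aligned and counted, against which miRNA annotation, and what was done with reads of several matches is not given in the sources used here. Column heads given by the authors read TPM, but the deposited values are RPM, since each column sums to 1000000 and is made of whole multiples of 1 step, with no length correction. The deposited p-value is unadjusted. All values (100%) gave whole reads to within 0.01 read.

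The main test took names that reached 1 RPM in 3 libraries or more. It was limma 3.58.1 (R 4.3.3) on log2(RPM + 1), two-sided, its prior variance following the mean level, with Benjamini-Hochberg adjustment over all 418. Count tests on the recovered reads used edgeR 4.0.16, DESeq2 1.42.0 and limma-voom. Alternatives were a pseudocount of 0.1 or 5, other filters, other scalings, a replicate block and leaving out single libraries. The limma step was tested on simulated data. All pairs of replicates differed by more than sampling noise (chi-square per degree of freedom 75.1 to 324). Intervals are exact (Clopper-Pearson).

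Every tested member is named with each library's value, as is any member averaging 0.5 RPM or more in a group, members not in the table are named, and up to 2 most abundant names stand for each other list. Members with at least 10 reads are named from the edgeR test. Names beyond this rule, such as the called muscle miRNAs and the unlisted or near-zero neural ones, were chosen after their values were seen, as were the sequences printed. The members, lists and tests were chosen with earlier results of these data known. Hairpins were matched by name to RefSeq and GENCODE M21, both on GRCm38, for annotation only.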

Additional observations from a re-analysis of the deposited data

How the results depend on the processing

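No member was called under any of the alternatives that kept members in the test, including the replicate block. The log2 fold change of miR-127-3p ran from −0.39 to −0.16 and that of miR-370-3p from −0.44 to −0.12. That of mmu-miR-409-3p ran from −0.57 to 0.019 over all settings and from −0.50 to 0.019 with single libraries left out. It turned sign once, at 0.019 without TGF-beta replicate 3, its library of 3 reads. The number of members tested was 3, and it was 21 with no filter on low values and 0 with a mean of at least 10 RPM, where no member was left. Members with reads in all 6 libraries were 5, against 2 with more than 3 reads in each library and 21 with at least 1 read in any library. The difference of the summed level was −0.32 in log2 terms and −0.15 with miR-21a-5p left out, and −0.38 to −0.23 with single libraries left out.

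Calls over all names were 33, with 19 under no filter on low values, 19 with a mean of at least 10 RPM, 10 with quantile normalization and 17 to 36 with single libraries left out. The lowest of these counts were 17 without TGF-beta replicate 2 and 18 without control replicate 1. The split was 17 higher and 16 lower, 25 and 7 with miR-21a-5p left out, 18 and 10 with TMM or median of ratios scaling, 19 and 10 with edgeR, 20 and 11 with DESeq2 and 19 and 11 with limma-voom. With the replicate block 32 names were called. Same-numbered libraries did not deviate together from their group means (correlations of −0.08, −0.07 and −0.08), so no pairing by number was seen. Whether the numbers mark paired cultures is not given in the labels, and these correlations cannot exclude it. At this depth 101 of the members' 126 values were 3 reads or fewer, and differences among those were not detectable. Sums of other imprinted names moved with choices made after seeing the data. The Sfmbt2 names averaged 241 RPM in TGF-beta and 262 RPM in control libraries, and 154 RPM in TGF-beta and 169 RPM in control libraries with names of the same reads counted once.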
